A study of Homo sapiens with 12 samples.

Results

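The unfolded protein and ATF4 response genes are 36 genes of the 58302 in the deposited table. They were taken by gene name. The list holds 23 genes of the unfolded protein response of the endoplasmic reticulum (ER) and 13 genes of the ATF4 response. All 36 were among the 16027 genes expressed highly enough to be tested. The cells were TPC1, an established papillary thyroid carcinoma line with 2 wild-type DICER1 alleles, and its Dicer1 (+/-) derivatives D11, WB1 and TD5. Each derivative grew from 1 cell sorted after transient transfection with a CRISPR/Cas9 plasmid against an exon of DICER1, and carries 1 allele with a frameshifting deletion beside 1 wild-type allele. DICER1 is the ribonuclease that cuts microRNA precursors. The 4 lines were grown in the same RPMI medium with serum, and each gave 3 mRNA libraries. Each Dicer1 (+/-) line is a single clone, so an effect of the lost allele and a difference between clones cannot be told apart from 1 clone. All 3 derivatives went through transfection, sorting and growth from 1 cell, while TPC1 was the parental line. No wild-type clone was among the 4 lines. An effect of these steps and an effect of the lost allele therefore cannot be told apart over the 3 clones either.

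As background, the ER folds secreted and membrane proteins with the help of chaperones such as BiP, the product of HSPA5. Unfolded protein in the ER activates the sensors IRE1 (ERN1), PERK (EIF2AK3) and ATF6. IRE1 splices the XBP1 mRNA into the form that encodes the active factor, ATF6 is cleaved into a transcription factor, and both raise transcription of chaperone and degradation genes. PERK phosphorylates the initiation factor eIF2, which slows protein synthesis and raises translation of the ATF4 mRNA. Other eIF2 kinases do the same when amino acids are scarce, so ATF4 target genes also follow nutrient supply. The values here are mRNA levels of whole genes, and they measure neither XBP1 splicing, nor ATF4 protein, nor eIF2 phosphorylation.

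The values are scaled reads, that is read counts per gene that the authors scaled to 20000000 aligned reads per library and rounded up. Steps between the values put the libraries at an estimated 12700000 to 21020000 reads, so that 3 reads, taken as the floor, equal 2.85 to 4.73 scaled reads depending on the library. The members lay between 108 scaled reads (DNAJB9, in 1 WB1 library) and 25162 (HSPA5, in 1 TPC1 library), well above that floor, and together took 0.685% to 0.788% of a library. DICER1, the targeted gene, was at 1101 to 1360 scaled reads in TPC1, 977 to 1093 in D11, 815 to 939 in WB1 and 627 to 809 in TD5. DICER1 fell in WB1 (−0.43 on the log2 scale, adjusted p = 0.00404) and TD5 (−0.77, adjusted p = 9.02e-05), and D11 did not pass (−0.19, adjusted p = 0.138). Among thyroid markers, TSHR, SLC5A5 and NKX2-1 were listed at 0 in all 12 libraries, TG reached at most 27 scaled reads, FOXE1 lay between 93 and 316, and PAX8 between 7248 and 9879. Among markers of blood, endothelial and fibroblast cells, PTPRC, CD14, PECAM1 and VWF reached at most 7 scaled reads and CD3E, CDH5 and DCN were listed at 0, while CD68 (921 to 1514) and LUM (0 to 212) had more. The summed level of this marker list was 1008 to 1232 in TPC1, 983 to 1137 in D11, 1472 to 1659 in WB1 and 1215 to 1364 in TD5. Of the 6 epithelial markers, CDH1 reached at most 2 scaled reads and EPCAM 5, while KRT8 and KRT18 were abundant, and their list summed to 21317 to 24330 in TPC1 and 16887 to 19326 in the clones. Mitochondrially encoded genes took 1.33% to 1.45% of the scaled reads in TPC1, 2.07% to 2.18% in D11, 1.91% to 2.22% in WB1 and 1.67% to 1.95% in TD5. Whether any of these differences had a part in the results on the members was not tested. In such bulk libraries fewer cells with a transcript and less of it per cell cannot be told apart.

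The promoters show which members carry the DNA elements through which these pathways are known to act. RefSeq promoter windows (GRCh38.p14, 250 bases before to 50 after each start) were found for 32 of the 36 members, and not for PSPH, SHMT2, PDIA3 and ALDH1L2. Both strands were searched for the ER stress response element ERSE (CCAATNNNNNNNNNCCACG), its variant ERSE-II (ATTGG and CCACG with 1 base between them), the XBP1-type element UPRE (TGACGTG) and the amino acid response element CARE (TGATGNAA). ERSE was present in 7 of the 32 members (CALR, CANX, CRELD2, HSP90B1, HSPA5, PDIA6 and XBP1), or 21.9%, against 0.092% of the 27305 genes searched. ERSE-II was present in 3 (HERPUD1, HYOU1 and SDF2L1), against 0.07% of genes. UPRE lay in HYOU1 only, where it overlaps an ERSE-II match, against 2.395% of genes, and CARE in ASNS, CHAC1 and HERPUD1, against 4.457%. A match is a description of these windows and not a measured binding site. The sequences below belong to the members that the results turn on, on the strand of the gene, with the element in capitals.
HSPA5 (ERSE, chr9:125241371-125241429, minus strand): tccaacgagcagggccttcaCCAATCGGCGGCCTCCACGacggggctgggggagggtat
CALR (ERSE in reverse, chr19:12938364-12938422, plus strand): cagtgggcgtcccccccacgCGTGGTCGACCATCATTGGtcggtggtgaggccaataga
XBP1 (ERSE, chr22:28800583-28800641, minus strand): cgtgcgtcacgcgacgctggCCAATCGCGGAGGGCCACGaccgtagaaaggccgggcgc
HERPUD1 (ERSE-II, chr16:56932005-56932055, plus strand): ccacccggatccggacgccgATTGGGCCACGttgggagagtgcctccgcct
HYOU1 (ERSE-II in reverse, chr11:119057254-119057304, minus strand): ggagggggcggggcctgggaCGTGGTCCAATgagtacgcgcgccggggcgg
ASNS (CARE, chr7:97872449-97872496, minus strand): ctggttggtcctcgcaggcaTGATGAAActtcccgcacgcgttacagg

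The first question was how each Dicer1 (+/-) clone differed from TPC1 in these genes. More members fell than rose in each clone. HYOU1 fell in all 3 clones and ATF5 in D11 and WB1. The genes of serine, one-carbon and asparagine synthesis fell mainly in WB1 and TD5, while in D11 3 of them fell and 2 rose. A call here is an adjusted p under 0.05 in limma on log2(value per 1000000 + 1), adjusted over all 16027 genes. In D11, 9 members fell and 6 rose, while 13.4% of all tested genes fell and 19.9% rose. In WB1, 15 fell and 4 rose, against 12.3% and 18.6% of all genes. In TD5, 7 fell and 0 rose, against 6.57% and 5.32%. The median log2 fold change of the members was −0.05 in D11, −0.15 in WB1 and −0.13 in TD5, beside 0.05, 0.06 and 0.00 over all tested genes. With median-of-ratios scaling the counts were 11 lower and 2 higher in D11 and 16 lower and 2 higher in WB1. Its scaling factors were 0.959 to 1.00 in TPC1, 1.01 to 1.03 in D11 and 1.02 to 1.03 in WB1. All genes of these 2 clones, not only the members, thereby moved down against TPC1. The shares of all tested genes called under this scaling are not given here, so these counts stand without a background. Testing without the filter on low genes ended the calls of HSPA5, CALR, EDEM1, EIF2AK3, ATF4, PHGDH and PSPH in D11, of HSPA5, PDIA4, CALR, ATF6, MTHFD2 and ALDH1L2 in WB1 and of CHAC1 in TD5. A fit of only the 6 libraries of the 2 lines ended the calls of PDIA4 and MTHFD2 in WB1 and of PHGDH and CHAC1 in TD5. With the replicate number as a block, the calls of HSPA5, EDEM1 and PSPH ended in D11. The block also ended those of HSPA5, PDIA4 and MTHFD2 in WB1 and of CHAC1 in TD5. No member called in a clone reached 1.5-fold, which 4.84% of all genes did in D11, 4.99% in WB1 and 2.6% in TD5. HYOU1, PHGDH and SHMT2 fell in all 3 clones, 9 members fell in 2 clones and 4 in 1, and 14 members were called in no clone. The 3 comparisons share the TPC1 libraries, so these counts are not independent. The share of all tested genes called in 3, 2, 1 or 0 clones is not given here. The counts across clones therefore stand without a background. The labels do not say whether the 3 libraries of a line came from separate cultures, so the p-values measure only the spread between these libraries, which may be technical.

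**Figure D1:**
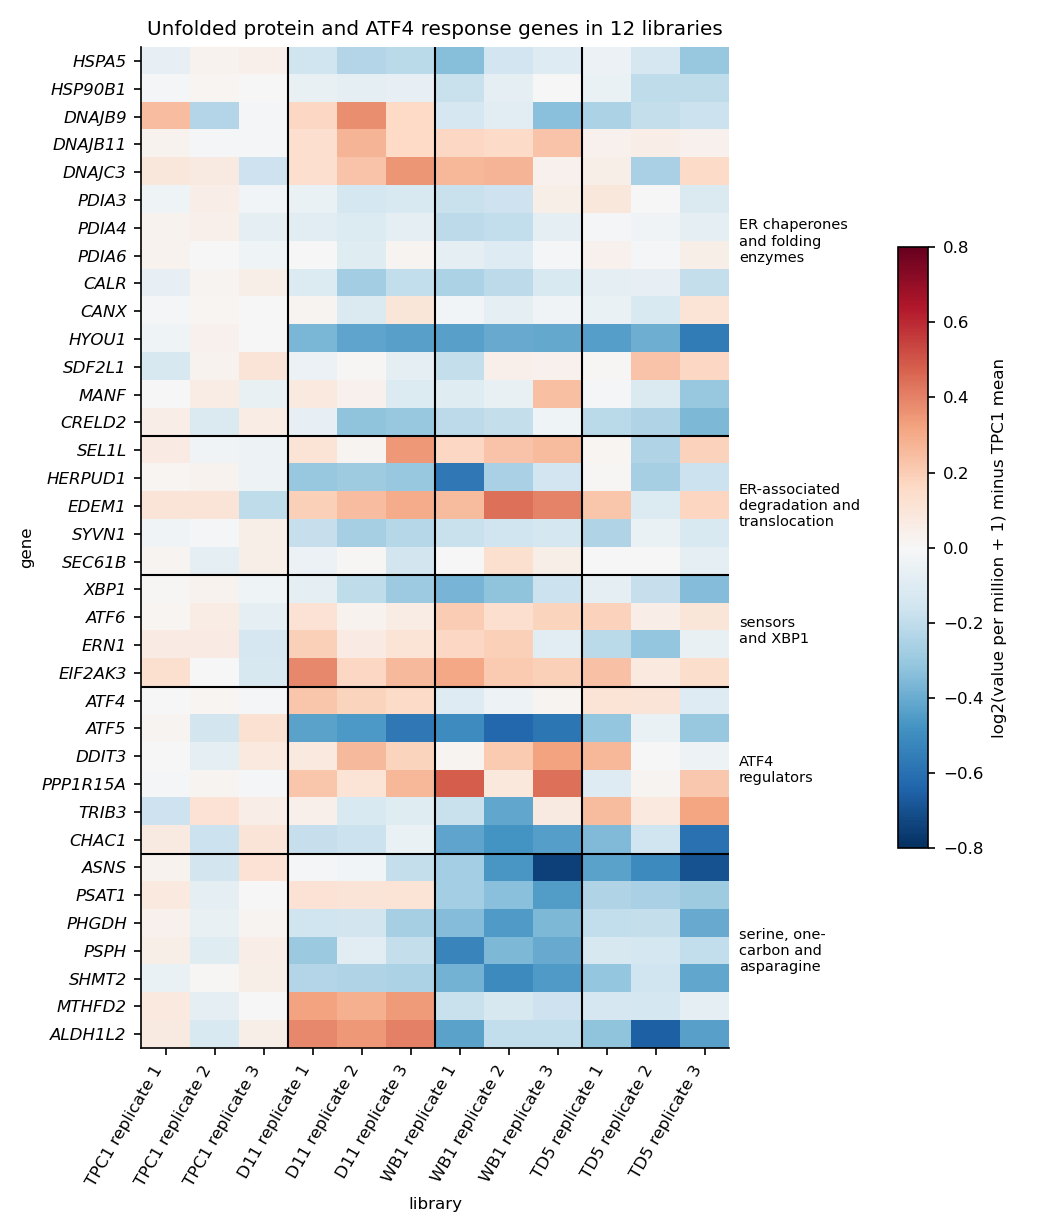
Each row is one of the 36 genes and each column one of the 12 libraries; color gives log2(value per 1000000 + 1) minus the mean of the 3 TPC1 libraries, and lines separate cell lines and gene groups. HYOU1 and ATF5 are blue across D11 and WB1, and MTHFD2 and ALDH1L2 are red in D11 and blue in WB1 and TD5.

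Among the 14 ER chaperones and folding enzymes, 3 fell and 1 rose in D11, 4 fell and 1 rose in WB1, and 1 fell in TD5. The shares of all tested genes that fell were 13.4%, 12.3% and 6.57%, and those that rose 19.9%, 18.6% and 5.32%. HYOU1, a large HSP70-type chaperone of the ER that also exchanges nucleotides on BiP, was lower in all 3 clones. It measured 5132, 5392 and 5256 scaled reads in the TPC1 libraries. The D11 libraries had 4083, 3923 and 3887, those of WB1 3880, 3974 and 3960, and those of TD5 3869, 4011 and 3555. Every clone library lay below every TPC1 library, and the lines D11, WB1 and TD5 overlapped one another. The log2 fold change of HYOU1 was −0.41 ± 0.05 (SE) in D11 (adjusted p = 7.06e-05), −0.42 ± 0.05 in WB1 (adjusted p = 5.73e-05) and reached −0.46 ± 0.05 in TD5 (adjusted p = 3.88e-05), which is 75.4%, 74.9% and 72.5% of the TPC1 mean. These 3 calls were kept in all 22 alternative fits. HYOU1 holds 2 ERSE-II matches, 1 of which is printed above.

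HSPA5, which encodes the chaperone BiP, was lower by a smaller margin. Its values were 23322, 24889 and 25162 scaled reads in TPC1. In D11 they were 21928, 20760 and 21054, those of WB1 19286, 22022 and 22801, and those of TD5 23622, 22306 and 19811. All D11 and WB1 libraries lay below those of TPC1, and 1 TD5 library lay within the TPC1 range. HSPA5 fell by 0.20 on the log2 scale in both D11 (adjusted p = 0.0337) and WB1 (adjusted p = 0.0395). The TD5 value was −0.16 (95% interval −0.31 to −0.02, adjusted p = 0.142). In D11 the call ended without TPC1 replicate 2 or 3 or D11 replicate 2 or 3 (−0.20 to −0.18, adjusted p of 0.091 to 0.111), and in WB1 without the same 4 libraries or WB1 replicate 1 or 2 (−0.22 to −0.13, adjusted p of 0.0512 to 0.199).

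CALR, the lectin chaperone calreticulin, averaged 23357 ± 951 scaled reads in TPC1 (SD, n = 3), 20412 ± 1169 in D11, 20421 ± 977 in WB1 and 21669 ± 1024 in TD5. It fell by 0.20 in D11 (adjusted p = 0.0175) and by 0.19 in WB1 (adjusted p = 0.0187), and the TD5 value of −0.11 did not pass (adjusted p = 0.245). The CALR calls ended in both clones without TPC1 replicate 2 or 3 and in each when either of 2 clone libraries was left out (−0.19 to −0.15, adjusted p of 0.0558 to 0.0937), and the D11 call also ended after correction for GC content (−0.13, adjusted p = 0.0823). PDIA4, a protein disulfide isomerase, fell in WB1, by 0.16 (adjusted p = 0.0354), and that call ended without TPC1 or WB1 replicate 1 or 2 (adjusted p of 0.0889 to 0.12). DNAJB11, a co-chaperone of BiP, rose instead, by 0.19 in D11 (adjusted p = 0.0174) and 0.18 in WB1 (adjusted p = 0.0224), with every library of both clones above TPC1. Its sign turned after correction for GC content, to −0.061 in D11 and −0.024 in WB1, neither of them a call. Correction for length and median-of-ratios scaling ended both DNAJB11 calls too (adjusted p of 0.0787 to 0.306). They also ended without TPC1 replicate 2 or 3, D11 replicate 2 or WB1 replicate 3 (0.15 to 0.18, adjusted p of 0.0508 to 0.0959). The longest transcript of DNAJB11 had a GC content of 38.6%, against a median of 48.1% over the tested genes.

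The other 9 genes of this group passed in no clone. HSP90B1 (GRP94, the HSP90 of the ER) averaged 13428 scaled reads in TPC1 and 12102 to 12831 in the clones, and its largest difference was −0.15 in TD5 (adjusted p = 0.0883). CRELD2, a secreted ER stress protein, was at 496 in TPC1 and 407 to 446 in the clones, with −0.27 in TD5 (adjusted p = 0.0642). The disulfide isomerases PDIA3 and PDIA6, the lectin chaperone CANX, the BiP cofactor SDF2L1 and the stress-secreted factor MANF differed from TPC1 by −0.14 to 0.13. The co-chaperone DNAJC3 was at 0.24 in D11 (adjusted p = 0.0845) and −0.02 in TD5. DNAJB9, which recruits BiP to IRE1, was at 143 ± 27.1 scaled reads in TPC1, 170 ± 16.5 in D11, 122 ± 12.7 in WB1 and 120 ± 4.16 in TD5. Its differences from TPC1 were within the spread between libraries (adjusted p of 0.152 to 0.301).

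The genes of ER-associated degradation moved in both directions. HERPUD1, a membrane protein of the degradation complex, averaged 2339 ± 60 scaled reads in TPC1, 1898 ± 14.6 in D11, 1871 ± 272 in WB1 and 2125 ± 213 in TD5. It fell by 0.30 in D11 (adjusted p = 0.0171) and by 0.33 in WB1 (adjusted p = 0.0106), and TD5 overlapped TPC1 (−0.14, adjusted p = 0.327). Its D11 call ended without TPC1 replicate 2 or D11 replicate 3 (−0.30 and −0.29, adjusted p of 0.0513 and 0.0515) and its WB1 call without WB1 replicate 1 (−0.21, adjusted p = 0.0612). SYVN1, the ubiquitin ligase HRD1, fell by 0.23 in D11 (adjusted p = 0.00941, or 0.0646 after correction for GC content). EDEM1, which directs misfolded glycoproteins to degradation, rose by 0.25 in D11 (adjusted p = 0.0485) and by 0.37 in WB1 (adjusted p = 0.00717). The D11 call of EDEM1 ended in 12 of the 22 alternative fits, among them those without TPC1 replicate 3 or any 1 of the D11 libraries, and the WB1 call ended only without TPC1 replicate 3 (0.26, adjusted p = 0.0501). SEL1L, the partner of HRD1, and SEC61B, a subunit of the translocon, passed in no clone, with differences of −0.06 to 0.22.

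XBP1, the factor spliced by IRE1, measured 1578, 1602 and 1533 scaled reads in TPC1. D11 gave 1489, 1364 and 1280, those of WB1 1209, 1250 and 1395, and those of TD5 1489, 1381 and 1231. All 9 clone libraries lay below the TPC1 libraries. It fell in WB1 by 0.29 (adjusted p = 0.0114), a call that ended without WB1 replicate 1 (−0.25, adjusted p = 0.0542). D11 (−0.19, adjusted p = 0.0719) and TD5 (−0.20, adjusted p = 0.105) did not pass. None of the sensor genes fell. EIF2AK3 (PERK) rose by 0.27 in D11 (adjusted p = 0.033) and ATF6 by 0.17 in WB1 (adjusted p = 0.0321), while ERN1 (IRE1) was at 0.12, 0.09 and −0.19 in D11, WB1 and TD5 and passed in none. The EIF2AK3 call ended without TPC1 replicate 2 or 3 or D11 replicate 1 or 3 (adjusted p of 0.0726 to 0.142), and the ATF6 call without TPC1 replicate 1 or 3 or any 1 of the WB1 libraries (adjusted p of 0.0515 to 0.134). Corrections for GC content and length and median-of-ratios scaling ended both (adjusted p of 0.0749 to 0.966). The GC content was 42.5% for EIF2AK3 and 41.2% for ATF6.

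**Figure D2:**
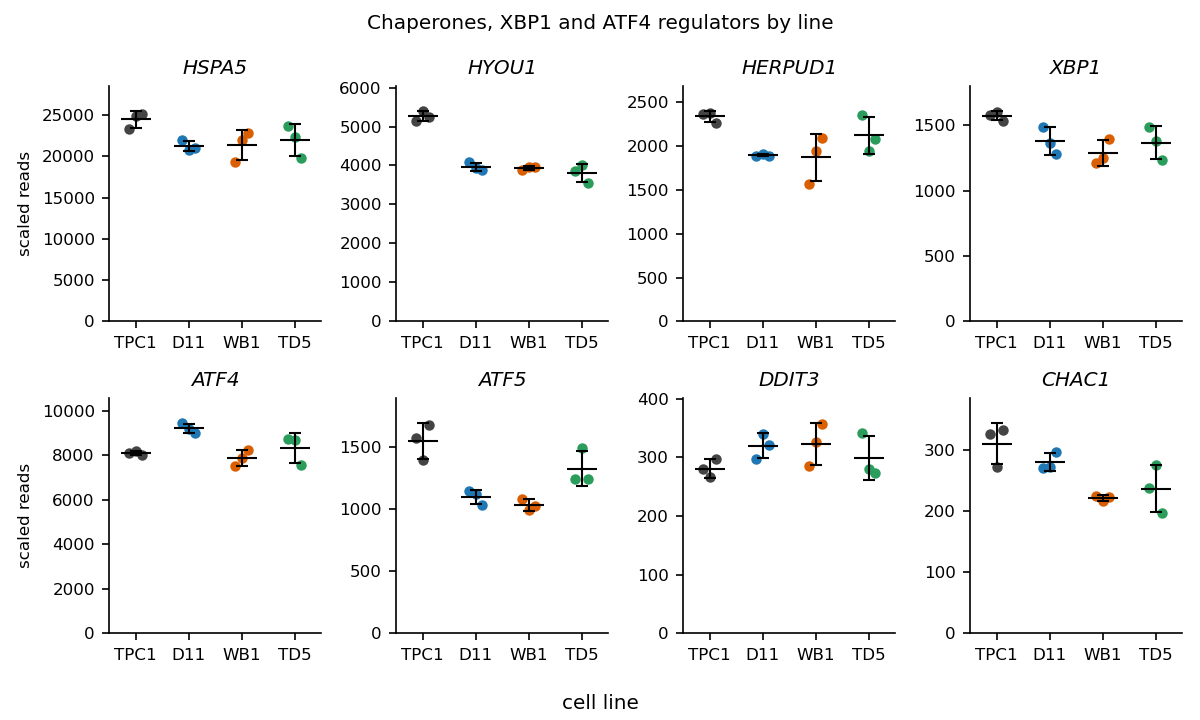
Scaled reads of 8 genes in each library (points) with the mean and SD of the 3 libraries per cell line (bars), on axes that start at 0. HYOU1 is lower in all 3 clones, and HSPA5, HERPUD1 and ATF5 are lower in D11 and WB1 with overlap in TD5.

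The unfolded protein arm was also described by whether its promoters held an ERSE or ERSE-II element. Of the 10 with such an element, 4 fell in D11, 5 fell in WB1, 1 fell in TD5 and 0 rose, with medians of −0.19, −0.17 and −0.15. HSPA5, CALR, HYOU1 and HERPUD1 are the 4 in D11, and XBP1 joined them in WB1. Among the 12 searched genes that lacked one, both D11 and WB1 had 3 rises and 1 fall, and TD5 had 0 calls, with medians of 0.14, 0.13 and −0.02. In the test as reported, 13.4%, 12.3% and 6.57% of all tested genes fell in D11, WB1 and TD5. The shares that rose were 19.9%, 18.6% and 5.32%, and the medians over all tested genes 0.05, 0.06 and 0.00. Of the other 6 genes with the element, none passed in D11 in the test as reported. Correction for GC content added falls there of HSP90B1, CANX and XBP1. Correction for length added those of CRELD2 and HSP90B1, and median-of-ratios scaling those of CRELD2 and XBP1. Each of these 3 settings also ended all 3 D11 rises of the genes without the element (DNAJB11, EDEM1 and EIF2AK3). In WB1 each ended the rises of DNAJB11 and ATF6. Among these 22 genes, GC correction also added falls in WB1 of CANX, HSP90B1, PDIA6 and DNAJB9. Length correction added falls in WB1 of HSP90B1 and SYVN1, and median-of-ratios scaling that of SYVN1. DNAJB9 and SYVN1 lack the element. Correction for GC content further ended the falls of CALR and SYVN1 in D11. This grouping was made with the results known, it was not tested, and the counts describe these 22 genes only.

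Among the 6 ATF4 regulators, ATF4 itself differed little. It measured 8096, 8179 and 8003 scaled reads in TPC1. For D11 the values were 9442, 9169 and 9014, those of WB1 7541, 7884 and 8232, and those of TD5 8734, 8687 and 7543. The D11 libraries were the highest and lay above all TPC1 libraries, and WB1 and TD5 overlapped TPC1. ATF4 rose by 0.19 in D11 (adjusted p = 0.0237), and the call ended with median-of-ratios scaling (0.13, adjusted p = 0.136) and without TPC1 replicate 3 or any 1 of the D11 libraries (0.17 to 0.20, adjusted p of 0.0501 to 0.0786). WB1 (−0.04, 95% interval −0.16 to 0.09) and TD5 (0.04, −0.09 to 0.16) did not pass.

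DDIT3, which encodes CHOP, the factor linked to cell death under prolonged stress, measured 280, 266 and 297 scaled reads in TPC1. D11 had 298, 340 and 321, those of WB1 286, 327 and 356, and those of TD5 342, 281 and 273. WB1 and TD5 overlapped TPC1, and D11 lay just above it by 1 scaled read at the closest pair. No clone passed, with log2 fold changes of 0.17, 0.18 and 0.08 and adjusted p of 0.203, 0.183 and 0.69. The 95% intervals reached from −0.14 to 0.40 over the 3 clones.

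ATF5, a factor that like ATF4 is translated more when eIF2 is phosphorylated, had the largest fall of any member in D11 and WB1. It was named with its libraries after its values were seen. It measured 1568, 1394 and 1678 scaled reads in TPC1. The values in D11 were 1142, 1118 and 1030, those of WB1 1083, 992 and 1025, and those of TD5 1242, 1487 and 1244. D11 and WB1 lay below TPC1 in every library and TD5 overlapped it. ATF5 fell by 0.49 in D11 (adjusted p = 0.00054) and by 0.57 in WB1 (adjusted p = 0.000145), to 70.9% and 66.8% of the TPC1 mean, and both calls were kept in all 22 alternatives. TD5 was at −0.22 (adjusted p = 0.0917). CHAC1, which degrades glutathione and is a target of the ATF4 and CHOP pathway, fell by 0.45 in WB1 (adjusted p = 0.00655) and, in TD5, by 0.37 (adjusted p = 0.0374), and was at −0.14 in D11 (adjusted p = 0.352). One TD5 library lay within the TPC1 range. The TD5 call of CHAC1 ended without TPC1 replicate 1 or 3, D11 replicate 2 or TD5 replicate 1 or 3 (−0.38 to −0.26, adjusted p of 0.0506 to 0.166).

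PPP1R15A (GADD34), which guides the removal of the phosphate from eIF2, rose by 0.33 in WB1 (adjusted p = 0.0167) on values of 919 ± 13.2 scaled reads in TPC1 and 1173 ± 173 in WB1. That call ended without TPC1 replicate 3 or WB1 replicate 1 or 3 (0.26 to 0.33, adjusted p of 0.0532 to 0.0867). TRIB3, a pseudokinase that feeds back on ATF4, passed in no clone (−0.06, −0.17 and 0.22).

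**Figure D3:**
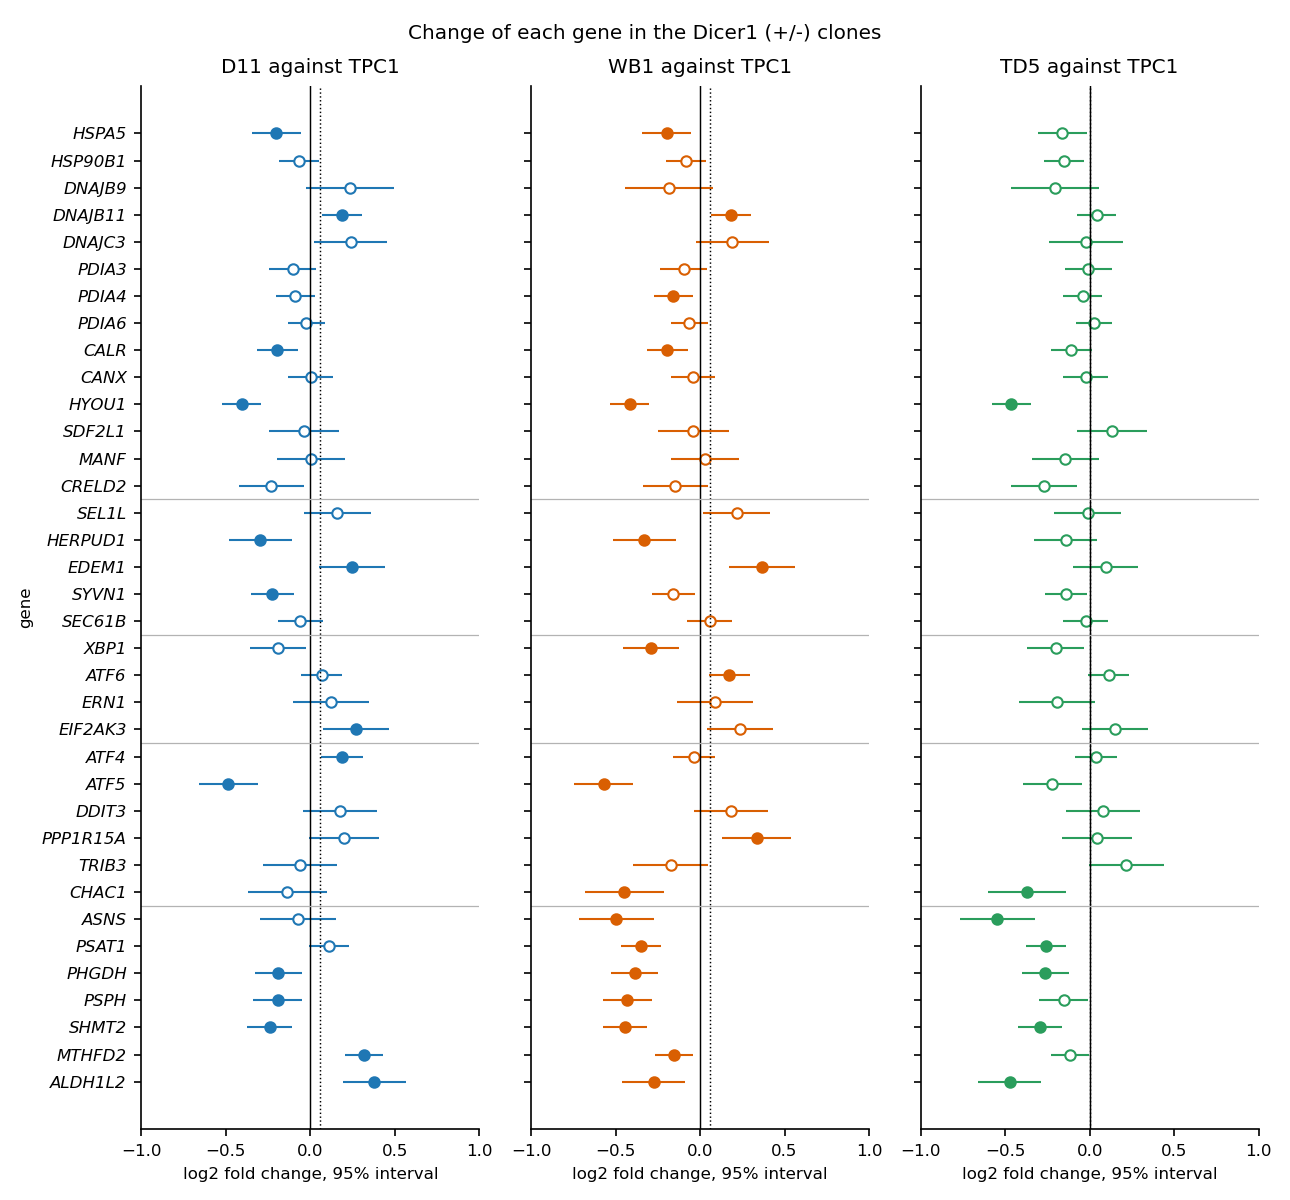
Log2 fold change of each of the 36 genes in D11, WB1 and TD5 against TPC1 (x axis) with its 95% interval; filled points passed an adjusted p under 0.05, open points did not, and the dotted line is the median of all tested genes. Filled points lie to the left for the last 7 genes in WB1, while MTHFD2 and ALDH1L2 lie to the right in D11.

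The 7 genes of serine, one-carbon and asparagine synthesis had the largest median change of the 5 member groups in WB1 and TD5, though not in D11. All 7 fell in WB1 (median −0.39), 5 fell in TD5 (median −0.26), and in D11 3 fell and 2 rose (median −0.07). The falls over all tested genes were 12.3% in WB1, 6.57% in TD5 and 13.4% in D11, where 19.9% rose. PHGDH, PSAT1 and PSPH catalyse the steps from a glycolytic intermediate to serine. SHMT2, MTHFD2 and ALDH1L2 pass the carbon of serine through the mitochondrial folate pathway, and ASNS makes asparagine.

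PHGDH, the first enzyme of serine synthesis, measured 2666, 2494 and 2643 scaled reads in TPC1. In D11 it measured 2326, 2348 and 2160, those of WB1 2043, 1897 and 2018, and those of TD5 2268, 2276 and 1964. No clone library reached the lowest TPC1 library. PHGDH fell by 0.19 in D11 (adjusted p = 0.036), by 0.39 in WB1 (adjusted p = 0.000557) and, in TD5, by 0.26 (adjusted p = 0.0159). The WB1 call was kept in all 22 alternatives. The D11 call ended without TPC1 replicate 1 or 3 or any 1 of the D11 libraries (−0.21 to −0.15, adjusted p of 0.0577 to 0.153), and the TD5 call without TPC1 replicate 1 or 3 or TD5 replicate 3 (−0.25 to −0.19, adjusted p of 0.0604 to 0.0685).

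SHMT2, which splits serine into glycine and a folate-bound carbon unit, measured 6166, 6449 and 6612 scaled reads in TPC1. D11 libraries measured 5441, 5428 and 5376, those of WB1 4935, 4502 and 4677, and those of TD5 5176, 5728 and 4794. All 9 clone libraries were below all TPC1 libraries. SHMT2 fell by 0.24 in D11 (adjusted p = 0.00809), by 0.44 in WB1 (adjusted p = 0.000105) and, in TD5, by 0.29 (adjusted p = 0.00507), and these calls were kept in all 22 alternatives.

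PSAT1, ASNS and PSPH were also chosen for this fuller account after their values were seen. PSAT1, the transaminase of serine synthesis, was at 5373 to 5961 scaled reads in TPC1, 6074 to 6128 in D11, 4137 to 4686 in WB1 and 4646 to 4790 in TD5, so that WB1 and TD5 lay below TPC1 and D11 above it. It fell by 0.35 in WB1 (adjusted p = 0.000319) and, in TD5, by 0.26 (adjusted p = 0.00635), and the D11 value of 0.11 did not pass (adjusted p = 0.141). ASNS was at 1293 to 1552 in TPC1, 1251 to 1420 in D11, 843 to 1180 in WB1 and 876 to 1056 in TD5. It fell by 0.50 in WB1 (adjusted p = 0.0026) and, in TD5, by 0.55 (adjusted p = 0.00268), while D11 overlapped TPC1 (−0.07, 95% interval −0.30 to 0.15). PSPH fell by 0.19 in D11 (adjusted p = 0.0402) and by 0.43 in WB1 (adjusted p = 0.000328), and was at −0.15 in TD5 (adjusted p = 0.163). The highest D11 library of PSPH lay within the TPC1 range, and the D11 call ended without TPC1 or D11 replicate 1 or 3 (adjusted p of 0.0964 to 0.168). The calls of PSAT1 and ASNS in WB1 and TD5 and of PSPH in WB1 were kept in all 22 alternatives.

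ALDH1L2, the mitochondrial enzyme that oxidises formyl folate and yields NADPH, differed most between clones. It measured 1124, 980 and 1103 scaled reads in TPC1. In D11 it was at 1396, 1364 and 1415, those of WB1 787, 929 and 929, and those of TD5 848, 670 and 785. D11 lay above TPC1 in every library, and WB1 and TD5 lay below it. ALDH1L2 rose by 0.38 in D11 (adjusted p = 0.00485, or 0.0797 after correction for GC content) and fell by 0.27 in WB1 (adjusted p = 0.0269) and, in TD5, by 0.47 (adjusted p = 0.00219). The WB1 call ended without TPC1 replicate 1 or 3 or WB1 replicate 1 (−0.25 to −0.20, adjusted p of 0.0879 to 0.135). MTHFD2, the mitochondrial folate dehydrogenase, was also highest in D11, with 4137 ± 222 scaled reads in TPC1 (SD, n = 3), 5151 ± 103 in D11, 3707 ± 67.3 in WB1 and 3816 ± 101 in TD5. It rose by 0.32 in D11 (adjusted p = 0.000499), a call kept in all 22 alternatives. It fell by 0.16 in WB1 (adjusted p = 0.0342), which ended without TPC1 replicate 1 or 3 or any 1 of the WB1 libraries (adjusted p of 0.0565 to 0.126), and TD5 (−0.11, adjusted p = 0.174) did not pass. After correction for GC content the MTHFD2 value was 0.15 in D11 and −0.31 in WB1, both calls.

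**Figure D4:**
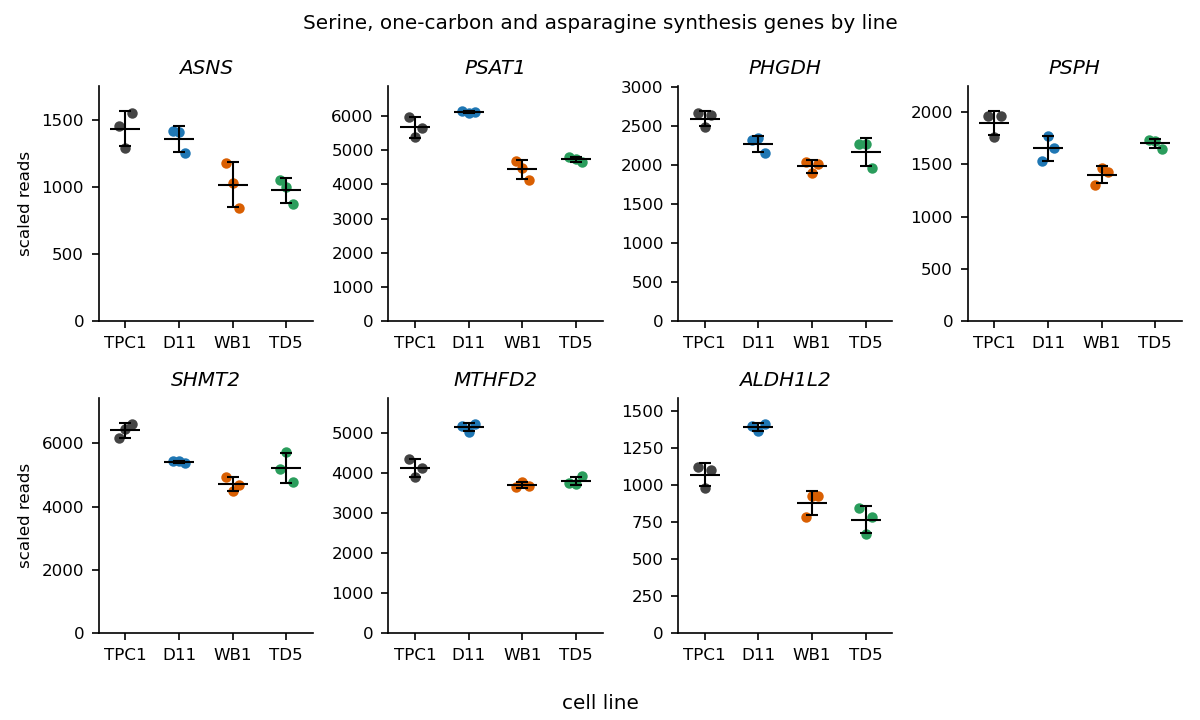
Scaled reads of the 7 serine, one-carbon and asparagine synthesis genes in each library (points) with the mean and SD of the 3 libraries per cell line (bars), on axes that start at 0. WB1 lies below TPC1 for all 7 genes, and D11 lies above TPC1 for PSAT1, MTHFD2 and ALDH1L2.

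The second question was whether the clones differed from one another. In WB1 against D11, 7 members were lower and 0 higher, against 3.42% and 4.65% of all tested genes. In TD5 against D11, 6 were lower and 1 higher, against 14.8% and 8.43%. In TD5 against WB1, 0 were lower and 3 higher, against 9.12% and 4.52%. At 1.5-fold or more, 1 member was called in each of the first 2 comparisons (ALDH1L2 in both) and 0 in the last, against 2.85%, 3.99% and 2.33% of all genes. These comparisons share libraries with one another and with those against TPC1.

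ASNS, PSAT1, MTHFD2 and ALDH1L2 were lower in both WB1 and TD5 than in D11, with no overlap between libraries. ALDH1L2 was lower by 0.65 on the log2 scale in WB1 (95% interval −0.84 to −0.46, adjusted p = 9.91e-05) and by 0.85 in TD5 (−1.03 to −0.66, adjusted p = 5.25e-06). MTHFD2 was lower by 0.47 and 0.43, PSAT1 by 0.46 and 0.37, and ASNS by 0.42 and 0.47, with adjusted p of 1.31e-05 to 0.0175. The calls of ALDH1L2, MTHFD2 and PSAT1 were kept in all 22 alternatives in both comparisons, and that of ASNS in TD5 only. The ASNS difference between WB1 and D11 ended without D11 replicate 1 or 2 or WB1 replicate 3 (−0.40 to −0.30, adjusted p of 0.0771 to 0.108). Between WB1 and TD5 none of these 4 genes passed (−0.20 to 0.09). ATF4 was also lower in WB1 than in D11, by 0.22 (adjusted p = 0.0244), and was at −0.15 in TD5 against D11, which did not pass. That ATF4 call ended without any 1 of the D11 libraries or WB1 replicate 1 or 2 (adjusted p of 0.0558 to 0.109). DNAJB9 was lower than in D11 in both WB1 (−0.42, adjusted p = 0.046) and TD5 (−0.44, adjusted p = 0.0168). The WB1 call of DNAJB9 ended without any 1 of the D11 or WB1 libraries, TPC1 replicate 3 or TD5 replicate 1 (adjusted p of 0.0538 to 0.209), and the TD5 call without D11 replicate 2 or TD5 replicate 1 (0.0513 and 0.0859) or after correction for GC content (0.205). ERN1 was lower in TD5 than in D11 by 0.32 (adjusted p = 0.0418), which ended with the replicate number as a block (adjusted p = 0.057) and in 6 other alternatives that kept all 6 libraries of the pair, and without any 1 of the D11 libraries or TD5 replicate 1 or 2 (adjusted p of 0.0765 to 0.149). ATF5 was higher in TD5 than in D11 (0.26, adjusted p = 0.0291) and WB1 (0.35, adjusted p = 0.0119), TRIB3 was higher in TD5 than in WB1 (0.39, adjusted p = 0.0214), and PSPH was lower in WB1 than in D11 (−0.24, adjusted p = 0.044) and higher in TD5 than in WB1 (0.28, adjusted p = 0.0153). The call of ATF5 against D11 ended without D11 replicate 2 or 3 or TD5 replicate 2, and that against WB1 without WB1 or TD5 replicate 2. Correction for GC content also ended the call of ATF5 against D11 (adjusted p = 0.0607). The TRIB3 call ended with only the 6 libraries of the pair and without WB1 replicate 1 or 2 or TD5 replicate 1. For PSPH the call against D11 ended when TD5 or TPC1 replicate 1 was left out, and likewise for WB1 replicate 1 or 3 and D11 replicate 2 or 3, and that between TD5 and WB1 without WB1 replicate 1 or TD5 replicate 2. Testing without the filter on low genes ended the calls of DNAJB9, ATF4 and PSPH between WB1 and D11, of ERN1 and ATF5 between TD5 and D11, and of TRIB3. The replicate block ended the calls of DNAJB9 and PSPH between WB1 and D11. Over the leave-outs of ATF5, TRIB3 and PSPH the adjusted p was 0.05001 to 0.229.

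Other genes of the pathways, from lists that do not overlap the members, were read from the same fit. Their counts stand beside falls of 13.4%, 12.3% and 6.57% of all tested genes in D11, WB1 and TD5. The rises over all tested genes were 19.9%, 18.6% and 5.32%. Of 25 other ATF4 targets, 7 fell and 4 rose in D11, 13 fell and 4 rose in WB1, and 9 fell and 2 rose in TD5, with medians of −0.06, −0.28 and −0.19. The falls in WB1 included the amino acid transporters SLC7A5, SLC3A2, SLC1A4, SLC1A5 and SLC6A9, while the transporter SLC38A2 rose in D11 and WB1 and SLC7A11 rose in D11. By the rule for named genes, SLC3A2, the heavy chain of amino acid exchangers, was lower by 0.39, 0.79 and 0.50 in D11, WB1 and TD5, and VEGFA, an angiogenic factor that also responds to hypoxia, was higher by 0.49, 1.29 and 1.15. Of the 12 tRNA synthetases known to follow ATF4, 1 fell in D11, 7 fell in WB1, 6 fell in TD5 and 0 rose, with medians of −0.03, −0.25 and −0.22. WARS fell in all 3 clones (−0.32, −0.37 and −0.36), and MARS fell in WB1 and TD5 (−0.45 and −0.36). Of 9 other one-carbon genes, 1 fell and 3 rose in D11, 1 fell and 3 rose in WB1, and 1 rose in TD5. The glycine decarboxylase GLDC rose in all 3 clones (0.44, 0.87 and 0.42), and AMT passed in WB1 (0.45, adjusted p = 0.0488) at a low mean of 23.7 scaled reads in WB1.

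Outside the ATF4 targets the lists were mixed. Of 20 other ER folding genes, 7 fell and 4 rose in D11, 6 fell and 2 rose in WB1, and 2 fell and 1 rose in TD5. ERO1A, the ER oxidase, rose (0.35, 0.54 and 0.49) and the glucosidase MOGS fell (−0.35, −0.34 and −0.39) in D11, WB1 and TD5. Of 15 other degradation genes tested of 16, 2 fell and 5 rose in D11, 3 fell and 4 rose in WB1, and 0 were called in TD5, and the genes named by the rule, with the largest mean change over the 3 clones, were NGLY1 (0.30, 0.41 and 0.17) and UBXN4 (0.32, 0.30 and 0.22). Of 22 translocon and early secretory genes, 4 fell and 3 rose in D11, 5 fell and 2 rose in WB1, and 2 fell in TD5. SEC61A1 and SSR2 fell in all 3 clones. The genes named by the rule rose, SPCS3 in D11 only (0.47, adjusted p = 0.04335) and SEC11C in D11 and WB1 (0.37 and 0.44). Of 10 eIF2 kinases, eIF2B subunits and phosphatase partners, 1 fell (EIF2B4, −0.26) and 2 rose (PPP1R15B, 0.24, and EIF2AK2) in D11, and 0 were called in WB1 and TD5. Of 12 cytosolic heat shock genes, 2 fell in D11 and WB1 each (BAG3 by 0.34 and 0.26, HSP90AB1 by 0.24 and 0.21) and 1 in TD5, and 0 rose. Of 8 mitochondrial chaperones and proteases, TRAP1 fell in D11 and WB1 (−0.27 and −0.34), YME1L1 rose in D11 (0.20), and 1 gene rose in TD5.

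**Figure D5:**
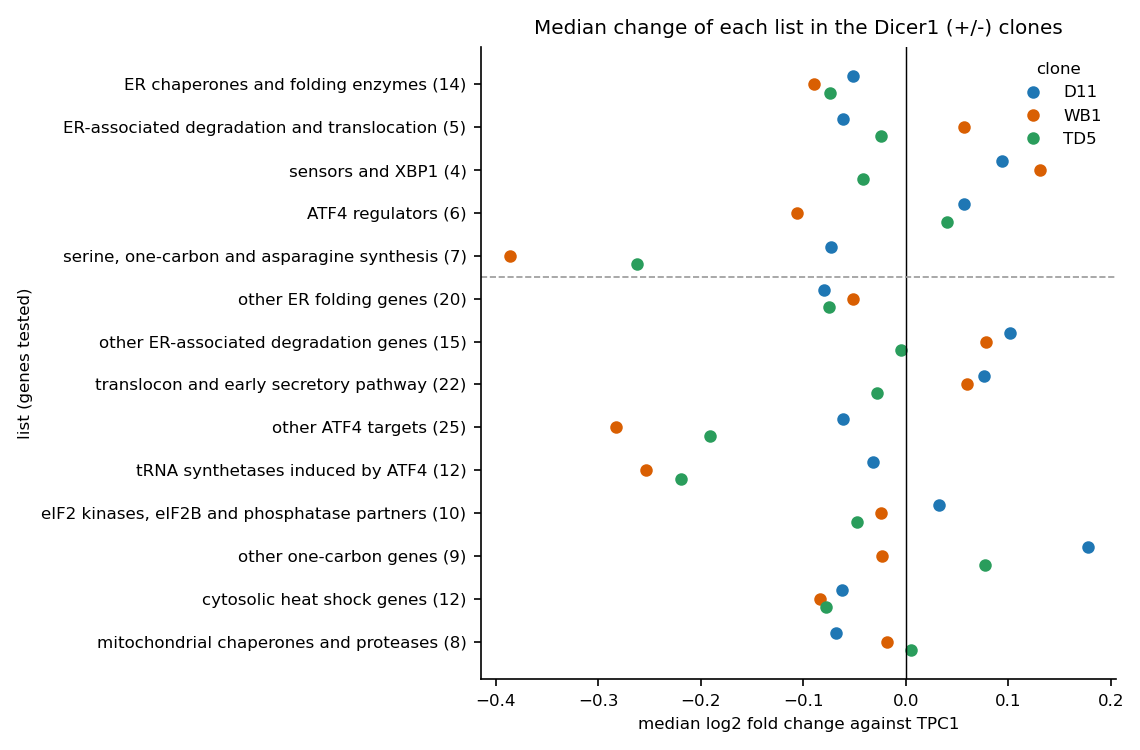
Median log2 fold change against TPC1 (x axis) of each list of genes (y axis, with the number tested) in D11, WB1 and TD5; lists above the dashed line are members. The serine, one-carbon and asparagine group, the other ATF4 targets and the tRNA synthetases lie between −0.19 and −0.39 in WB1 and TD5 and between −0.03 and −0.07 in D11.

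Levels per gene length ordered the members over a wide range. In TPC1 the scaled reads per kilobase of exon and 1000000 were highest for CALR (416.5), HSPA5 (187), ATF4 (155) and PSAT1 (128), and lowest for ERN1 (0.515), EIF2AK3 (0.719) and DNAJB9 (2.81). The chaperones PDIA6, PDIA4, CANX and HSP90B1 lay between 51.2 and 72.7, SHMT2 was at 69.7, HYOU1 at 38.5, XBP1 at 25.9, DDIT3 at 10.7 and CHAC1 at 7.58. The 4 highest members in TPC1 were also the 4 highest in each clone, with CALR at 364 to 386 and HSPA5 at 163 to 168. The exon length is the union over all annotated transcripts, which lowers the level of any member whose union is longer than its main mRNA. It was 20691 bases for EIF2AK3, 19153 for ERN1, 14263 for ATF6, 13764 for CANX and 13092 for HSP90B1. For CALR it was 2802 bases and for ATF4 2613. The order of the members given here depends on these lengths.

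Some members share exons with other genes in the annotation, and the strand setting of the counting is not given in the sources used here. On the same strand, the lncRNA ENSG00000284707 covers 49.3% of the exon bases of ASNS. On the opposite strand, MARS1 covers 27.2% of DDIT3, ATP6V1C2 25.2% of PDIA6, NUP62 19.5% of ATF5 and SLC4A5 11.6% of MTHFD2. The values of these genes are uncertain to the extent that reads in the shared bases were split, dropped or added.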

How the data were processed

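Polyadenylated RNA of 12 libraries (TPC1, D11, WB1, TD5; 3 each, grouped by their titles) was sequenced as pairs with a stranded kit. Per the submitters' processing notes and the methods of the study, the authors aligned reads to GRCh38 with STAR (2.5.3a), counted genes with HTSeq (0.9.1) and scaled the counts to 20000000 aligned reads. The deposited values are whole numbers, a score and not raw counts, because they were rounded up after scaling. The authors tested genes with edgeR, and that test was not repeated, since it needs raw counts.

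Each library was divided by its sum, genes that reached 1 per 1000000 in 3 libraries or more were kept (16027 of 58302), and limma (3.58.1, R 4.3.3) was run on log2(value per 1000000 + 1) with a mean-variance trend and 1 mean per line over all libraries. P-values were adjusted by the Benjamini-Hochberg method over all tested genes. Fold changes are on this log2 scale and understate low genes. The fit was tested on simulated data in which the changed genes differed by at least 1.5-fold, so it does not speak to smaller changes. No member called against TPC1 reached that size. Depth was estimated from the steps between values. In 11 libraries 99.82% to 99.92% of values lay on the steps, and for TPC1 replicate 1 the depth is an estimate by likelihood. Replicates correlated at 0.993 to 0.997.

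Alternatives were pseudocounts of 0.1 and 4, a filter at 5 per 1000000, no filter, median-of-ratios scaling, corrections for GC content and exon length (known for 99.1% of tested genes), voom on the estimated reads, only the 6 libraries of a pair, a replicate block, and leaving out each library. Same-numbered libraries deviated together in TD5 and D11 (correlations of 0.107, 0.172 and 0.348), which the labels do not explain, and in no other pair of lines. The members and the lists were chosen with earlier results of these data known. The rule for named genes was every library for members called at 1.5-fold in any comparison or in the same direction in all 3 clones and for HSPA5, XBP1, ATF4 and DDIT3, and 2 genes from each further list. Promoters and exon overlaps came from RefSeq and a GRCh38 gene annotation, by symbol.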

Additional observations from a re-analysis of the deposited data

Results flagged for a closer look

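The differences below are members whose change differed between clones, by the test of that difference in limma (adjusted p under 0.05 over all genes), with log2 values. In WB1 against D11 they were DNAJB9 (−0.42), ATF4 (−0.22), ASNS (−0.42), PSAT1 (−0.46), PSPH (−0.24), MTHFD2 (−0.47) and ALDH1L2 (−0.65). In TD5 against D11 they were DNAJB9 (−0.44), ERN1 (−0.32), ATF5 (0.26), ASNS (−0.47), PSAT1 (−0.37), MTHFD2 (−0.43) and ALDH1L2 (−0.85). In TD5 against WB1 they were ATF5 (0.35), TRIB3 (0.39) and PSPH (0.28). These 17 results concern 10 genes. Of all tested genes, 3.42% were lower and 4.65% higher in WB1 against D11. In TD5 the shares were 14.8% and 8.43% against D11 and 9.12% and 4.52% against WB1. As given above, the calls of DNAJB9, ATF4, ERN1, ATF5, TRIB3 and PSPH ended when certain single libraries were left out. So did that of ASNS in WB1 against D11. MTHFD2 and ALDH1L2 were called higher than TPC1 in D11 and lower than TPC1 in WB1, and they were the 2 members called in opposite directions in different clones.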

How the results depend on the processing

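Counts below are members higher and lower at an adjusted p under 0.05. The shares of all tested genes called under each alternative are not given here. Of the 58 member comparisons past the threshold, the 10 alternatives that kept all libraries left 518 of the values past it in the same direction, 60 in the same direction but short of it and 2 turned, and leaving out 1 of the 12 libraries left 577 past it and 119 short of it. GC correction turned DNAJB11 to −0.061 in D11 and −0.024 in WB1, and CANX to −0.19 in D11. In D11 against TPC1, higher members numbered 3 without the filter, 2 with median-of-ratios scaling and 3 with GC or length correction, and lower members 5 without the filter. In WB1 against TPC1, higher members numbered 2 with median-of-ratios scaling, GC or length correction. Lower members in WB1 against D11 numbered 4 without the filter. In TD5 against D11, higher members numbered 0 without the filter and 2 with median-of-ratios scaling, length correction or the 6 libraries of the pair. In TD5 against WB1, higher members numbered 5 with median-of-ratios scaling and 7 with GC correction, which also gave 1 lower member. Requiring 1.5-fold left 0 members in each direction, except 1 lower member in WB1 and in TD5 against D11. The median log2 value moved with median-of-ratios scaling to −0.11 in D11, −0.21 in WB1, −0.013 in TD5 against D11 and 0.076 in TD5 against WB1. GC correction gave 0.022 and 0.078 and length correction 0.0077 and 0.073 in the last 2 comparisons.

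Leaving out 1 library gave 2 to 7 higher and 4 to 10 lower members in D11 and 0 to 5 higher and 8 to 16 lower in WB1, with WB1 medians of −0.16 to −0.11. In TD5 it gave 0 higher and 5 to 8 lower. It gave 0 higher and 3 to 9 lower in WB1 against D11, 0 to 2 higher and 4 to 8 lower in TD5 against D11, and 1 to 5 higher and 0 to 4 lower in TD5 against WB1, with medians of −0.027 to 0.026. Without TPC1 replicate 3 the counts were 2 higher and 5 lower in D11 and 0 higher in WB1. Without D11 replicate 3, 4 were lower in D11. Without WB1 replicate 1, 8 were lower in WB1, and without TD5 replicate 3, 4 were lower in TD5 against WB1. The cause of these moves was not tested. With the replicate block the counts of higher and lower members were 5 and 7 in D11, 4 and 12 in WB1, 0 and 6 in TD5, 0 and 5 in WB1 against D11, 1 and 5 in TD5 against D11, and 3 and 0 in TD5 against WB1. Of the 6 libraries in a pair of lines, at most 4 correlated best with their own number (TD5 against D11). The depth of 12700000 to 21020000 reads limits DNAJB9, ERN1, CHAC1, DDIT3, SDF2L1 and EIF2AK3, the members with the fewest reads, most.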
